A study of Mus musculus with 6 samples.

Results

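The 8 genes described here are the RIG-I-like receptor genes *Ifih1*, *Ddx58* and *Dhx58*, the adaptor gene *Mavs*, the gene of the ubiquitin ligase TRAF3, the kinase genes *Tbk1* and *Ikbke*, and *Zc3hav1*. They were picked by symbol for their place in this pathway, and all 8 were found among the 59485 genes of the deposited table. All 8 also passed the filter on low values and are among the 25802 genes tested. The libraries came from sciatic nerves of mice at postnatal day 4 (P4), with 3 control animals labelled wild-type and 3 mutant animals labelled Ht-PA-Cre; Adar1fl/fl;R26R, 1 library per animal. In the mutants, a Cre transgene under the promoter of human tissue plasminogen activator deletes the floxed *Adar* alleles in neural crest (NC) cells, the lineage that gives rise to Schwann cells (SCs), while cells of other origin keep the gene. R26R is a YFP tracer of cells in which Cre acted. In the study's methods, wild-type animals lack Cre but carry R26R and 1 or 2 floxed *Adar* alleles. Such controls differ from the mutants by Cre and, in animals with 1 floxed allele, also by a floxed allele.

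A nerve library holds RNA of every cell type in the nerve, and fewer cells of a type cannot be told apart from less RNA per cell. The targeted gene *Adar* had normalized read counts of 1602, 2066 and 1133 in control replicates 1, 2 and 3 and of 11768, 9311 and 9773 in mutant replicates 1, 2 and 3. Its log2 fold change of 2.72 (SE 0.20, adjusted p = 4.1e-05) goes against the deletion that the labels name. The table gives 1 value per gene, in which the deleted segment cannot be told apart from the rest. For this reason each library is named after its label, as control-labelled or mutant-labelled, and all directions below rest on the labels. They held 50938349 to 78250094 reads on genes, and the 10 genes with most reads took 17.6 to 18.7% of them in control-labelled and 9.87 to 14.4% in mutant-labelled libraries. A normalized read count is the number of reads of a gene divided by the size factor of its library, and 1 read was worth 0.727 to 1.27. The 8 genes had between 113 and 39066 reads in a library, so none was near the limit of detection.

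RIG-I-like receptors are RNA helicases of the cytosol that bind double-stranded RNA. RIG-I, encoded by *Ddx58*, prefers RNA ends with a triphosphate, whereas MDA5, encoded by *Ifih1*, assembles along long duplexes, including those formed by unedited inverted repeats, which ADAR1 otherwise edits. Both carry caspase activation and recruitment domains through which they act on MAVS, an adaptor in the outer membrane of mitochondria. LGP2, encoded by *Dhx58*, lacks these domains and modulates the other two. MAVS recruits TRAF proteins, and TRAF3 and its relatives bring in the kinases TBK1 and IKKε (*Ikbke*), which phosphorylate the transcription factors IRF3 and IRF7 and so switch on type I interferon genes. *Zc3hav1* encodes ZAP, a zinc finger protein that binds CpG-rich RNA, targets it for decay and has been described as a partner of RIG-I. Interferon in turn raises the transcription of the receptor genes through the interferon-stimulated response element (ISRE), a promoter motif bound by the ISGF3 complex.

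The promoters of *Ifih1*, *Ddx58* and *Zc3hav1* are shown because these genes, described below, were past the threshold for a change between genotypes. The sequences are RefSeq's, on GRCm38.p6, and cover 250 bases before and 20 bases from the start site, 5′ to 3′ on the strand of the gene, which is the minus strand in all 3. Capitals mark matches to the ISRE core GAAANNGAA on either strand. *Ifih1* is read from chr2:62646236-62646505, *Ddx58* from chr4:40239806-40240075 and *Zc3hav1* from chr6:38354584-38354853.
Ifih1: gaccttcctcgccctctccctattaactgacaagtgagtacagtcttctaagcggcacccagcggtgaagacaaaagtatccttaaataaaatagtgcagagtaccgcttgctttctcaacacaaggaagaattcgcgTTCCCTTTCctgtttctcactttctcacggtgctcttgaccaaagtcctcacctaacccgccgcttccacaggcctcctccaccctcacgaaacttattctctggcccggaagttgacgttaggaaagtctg
Ddx58: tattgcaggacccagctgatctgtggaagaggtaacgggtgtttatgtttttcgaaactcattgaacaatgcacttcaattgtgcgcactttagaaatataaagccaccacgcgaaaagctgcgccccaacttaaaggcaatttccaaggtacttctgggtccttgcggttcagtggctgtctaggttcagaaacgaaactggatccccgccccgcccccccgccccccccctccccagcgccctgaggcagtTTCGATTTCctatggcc
Zc3hav1: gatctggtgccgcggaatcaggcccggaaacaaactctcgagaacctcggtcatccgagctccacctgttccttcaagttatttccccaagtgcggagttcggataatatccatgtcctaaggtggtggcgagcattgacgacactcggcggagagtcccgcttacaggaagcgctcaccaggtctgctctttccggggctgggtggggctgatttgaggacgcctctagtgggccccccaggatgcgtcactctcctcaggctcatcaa

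Windows of 250 bases before to 50 bases after the start site were found for 7 of the 8 genes, *Dhx58* being the missing entry. The *Ifih1* window held 2 matches to the ISRE core. The first, TTCCCTTTC, lies at −112 to −104, with the start site as base 0, and reads as the motif on the opposite strand, and the second, GAAACAGAA, lies at 32 to 40, beyond the printed stretch. *Ddx58* held 1 match, TTCGATTTC, at 3 to 11, again on the opposite strand. No match was found in the windows of *Zc3hav1*, *Mavs*, *Traf3*, *Tbk1* and *Ikbke*, which says only that these letters are not in them. Of all 32851 windows of the table, 8.56% held at least 1 match and 0.624% held 2 or more. The gamma-activated site TTCNNNGAA was found in none of the 7 windows and in 8.30% of all windows. A match is a description of the letters and not a site of binding.

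In the mutant-labelled nerves the transcripts of all 3 receptors were far more abundant than in the control-labelled nerves, and so was that of ZAP, while that of their adaptor MAVS was at about the same level. *Traf3*, *Tbk1* and *Ikbke* were higher by less than 2-fold. Following the limits of the study, a gene is called past the threshold where limma's p, before adjustment, is at most 0.05 and the change reaches 2-fold. Of the 8 genes, 4 were past it, all higher in mutant-labelled libraries, against 24.2% of tested genes past it in either direction and 13.9% past it and higher. With a Benjamini-Hochberg adjusted p at or under 0.05 at any fold, 7 of 8 were called, all higher, against 35.0% of tested genes in either direction and 19.0% higher. The values of the genotypes did not overlap in 7 of 8 genes, against 49.2% of tested genes. Log2 fold changes are mutant minus control on the log2(value + 1) scale, and errors of means are SDs over 3 libraries.

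**Figure D1:**
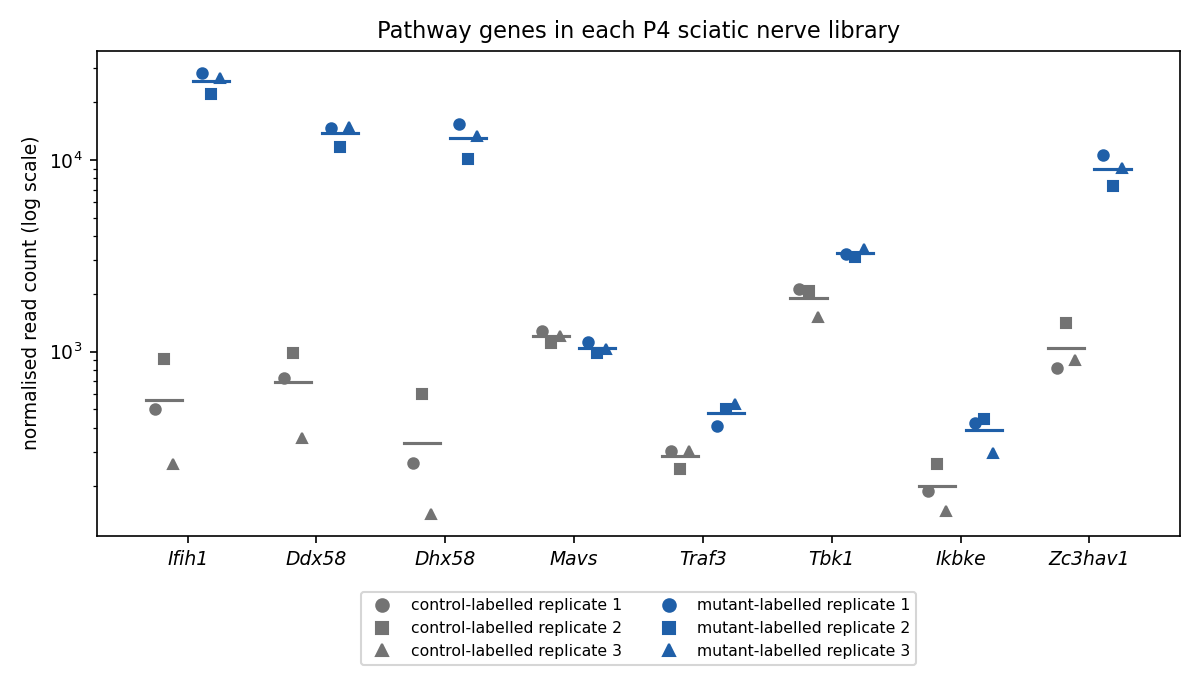
Normalized read count (log axis) of each of the 8 genes in each library, with control-labelled libraries in gray, mutant-labelled libraries in blue, a marker shape for each replicate number and a bar at the mean of 3 libraries. The 3 receptors and *Zc3hav1* lie far above their controls, *Traf3*, *Tbk1* and *Ikbke* lie just above them, and the values of *Mavs* overlap between genotypes.

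*Ifih1* (GSMG0022878, chromosome 2, 62595793 to 62646256, minus strand) had 503, 914 and 259.8 normalized reads in control-labelled replicates 1, 2 and 3. In mutant-labelled replicates 1, 2 and 3 the value was 28416, 21948 and 26734. The groups were wide apart, since the lowest mutant-labelled value was 24.0 times the highest control-labelled value. The mean went from 559 ± 331 to 25699.5 ± 3356 (SD, n = 3), a ratio of 46.0. The log2 fold change of *Ifih1* was 5.69 (SE 0.38, 95% interval 4.83 to 6.56, adjusted p = 2.2e-05). By size of rise, MDA5's gene stood at rank 162 of the tested genes, and 0.682% of tested genes had a larger change in either direction.

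*Dhx58* (GSMG0007397, chromosome 11, 100694704 to 100704271, minus strand), the gene of LGP2, had 264, 601 and 143 normalized reads in control-labelled replicates 1, 2 and 3. In mutant-labelled replicates 1, 2 and 3 it had 15357, 10125 and 13348. Its lowest mutant-labelled value was 16.8 times its highest control-labelled value, and replicate 2 was both the highest of the controls and the lowest of the mutants. The mean rose from 336 ± 237 to 12943 ± 2639 (SD, n = 3), a ratio of 38.5, with a log2 fold change of 5.49 (SE 0.44, 95% interval 4.48 to 6.49, adjusted p = 5.4e-05). A larger change in either direction was seen in 0.798% of tested genes. An unnamed gene with mean values of 3.59 and 68.3 overlaps *Dhx58* on the other strand, and whether the counting used strand is not given in the sources used here.

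*Ddx58* (GSMG0027679, chromosome 4, 40203777 to 40239827, minus strand), the gene of RIG-I, had 732, 990.3 and 354 normalized reads in control-labelled replicates 1, 2 and 3. Mutant-labelled replicates 1, 2 and 3 had 14728, 11602 and 14827. No mutant-labelled value came near the controls, the lowest being 11.7 times the highest control-labelled value. The mean of *Ddx58* rose from 692 ± 320.2 to 13719 ± 1834 (SD, n = 3), a ratio of 19.8 and a log2 fold change of 4.42 (SE 0.33, 95% interval 3.68 to 5.17, adjusted p = 3.7e-05). It stood at rank 466 by size of rise.

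*Zc3hav1* (GSMG0032901, chromosome 6, 38305286 to 38354604, minus strand), which encodes ZAP, had 822, 1409 and 899.7 normalized reads in control-labelled replicates 1, 2 and 3. The mutant-labelled replicates 1, 2 and 3 reached 10536, 7315 and 9062. The lowest mutant-labelled value was 5.19 times the highest control-labelled value. The mean rose from 1043 ± 319 to 8971 ± 1612 (SD, n = 3), a ratio of 8.60. Its log2 fold change of 3.13 (SE 0.21, 95% interval 2.64 to 3.62, adjusted p = 2.5e-05) was the smallest of the 4 genes past the threshold, at rank 1221 by size of rise.

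*Mavs* (GSMG0021812, chromosome 2, 131234061 to 131248025, plus strand), the adaptor shared by RIG-I and MDA5, had 1285, 1105 and 1213 normalized reads in control-labelled replicates 1, 2 and 3. It stood at 1126, 985 and 1028 in mutant-labelled replicates 1, 2 and 3. The groups overlapped, since mutant-labelled replicate 1 lay above control-labelled replicate 2. The means were 1201 ± 90.7 and 1046 ± 72.3 (SD, n = 3), a ratio of 0.871. The log2 fold change of *Mavs* was −0.20 (SE 0.12, 95% interval −0.48 to 0.08, adjusted p = 0.241), so a change larger than 2-fold in either direction lies outside its interval.

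*Traf3* (GSMG0008569, chromosome 12, 111166369 to 111267155, plus strand), which links MAVS to the kinases, had 305, 246 and 304 normalized reads in control-labelled replicates 1, 2 and 3. It had 408, 499.8 and 536 in mutant-labelled replicates 1, 2 and 3. The groups did not overlap, but the lowest mutant-labelled value was only 1.34 times the highest control-labelled value. The mean rose from 285 ± 34.1 to 481 ± 66.0 (SD, n = 3), a log2 fold change of 0.75 (SE 0.19, 95% interval 0.32 to 1.18, adjusted p = 0.0155). Without control-labelled replicate 2 the adjusted p of *Traf3* was 0.0594, and without mutant-labelled replicate 3 it was 0.0567. An unnamed gene with mean values of 9.61 and 48.1 overlaps *Traf3* on the same strand.

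*Tbk1* (GSMG0004689, chromosome 10, 121546455 to 121586794, minus strand), the gene of a kinase expressed in most cell types, had 2125, 2074 and 1513 normalized reads in control-labelled replicates 1, 2 and 3. In mutant-labelled replicates 1, 2 and 3 it had 3226, 3130 and 3416. All mutant-labelled values lay above all control-labelled values, and the mutant-labelled ones were close together. The mean rose from 1904 ± 339.7 to 3257 ± 146 (SD, n = 3), a log2 fold change of 0.79 (SE 0.14, 95% interval 0.46 to 1.12, adjusted p = 0.0034).

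*Ikbke* (GSMG0002077, chromosome 1, 131254366 to 131279565, minus strand), the gene of the inducible kinase IKKε, had 187.7, 259.8 and 148 normalized reads in control-labelled replicates 1, 2 and 3. It had 427, 445 and 297 in mutant-labelled replicates 1, 2 and 3. The groups came close to each other, the lowest mutant-labelled value being 1.14 times the highest control-labelled value. The mean rose from 199 ± 56.6 to 389 ± 80.8 (SD, n = 3), a log2 fold change of 0.98 (SE 0.27, 95% interval 0.37 to 1.60, adjusted p = 0.0224), just under 2-fold. The adjusted p of *Ikbke* passed 0.05 when control-labelled replicate 1 (0.0560), control-labelled replicate 3 (0.0720), mutant-labelled replicate 1 (0.0769) or mutant-labelled replicate 2 (0.0749) was left out. Without control-labelled replicate 2 its log2 fold change was 1.20 and without mutant-labelled replicate 3 it was 1.17, both past the threshold.

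**Figure D2:**
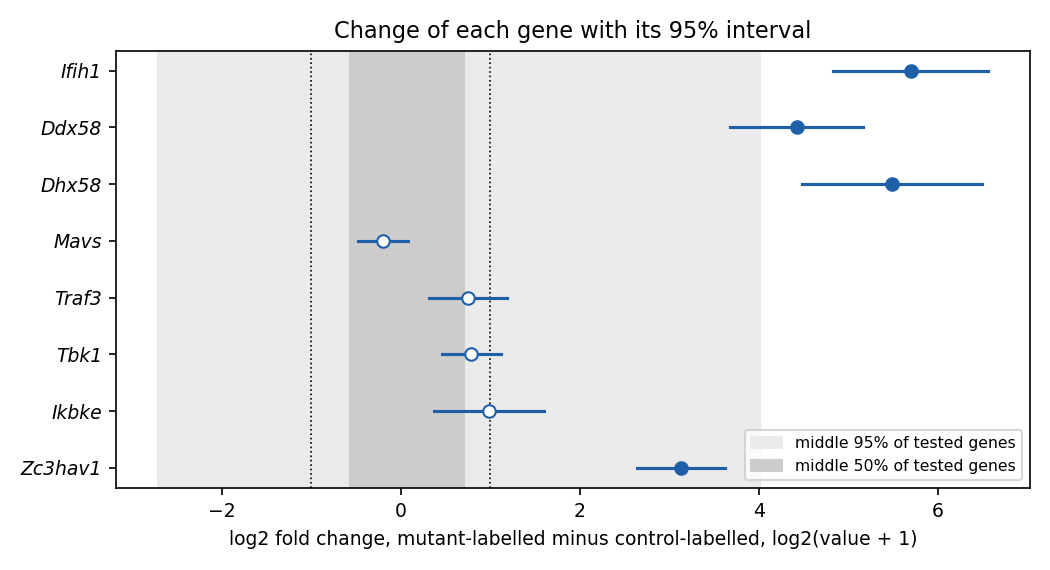
Log2 fold change of the 8 genes, mutant-labelled minus control-labelled, on the log2(value + 1) scale, with lines for 95% intervals, filled points for genes past the threshold, dotted lines at 2-fold and gray bands for the middle 50% and 95% of the tested genes. The receptors *Ifih1* (5.69), *Dhx58* (5.49) and *Ddx58* (4.42) lie beyond the wide band, *Zc3hav1* (3.13) lies within it, and *Mavs* (−0.20) lies in the narrow one.

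Over the 25802 tested genes the log2 fold change had a median of 0.03 and quartiles of −0.56 and 0.71, and the 2.5th and 97.5th percentiles were −2.71 and 4.01. The 3 receptors thus lay beyond the 97.5th percentile, ZAP's gene lay below it, and the log2 fold changes of *Traf3*, *Tbk1* and *Ikbke* lay just above the upper quartile. With libraries rescaled to equal totals this median moved by 0.17 on the log2 scale, and with libraries rescaled to an equal 75th percentile it moved by −0.12. Relative to that median *Mavs* was at −0.23 as deposited and at −0.24 and −0.23 after these rescalings. *Tbk1* was at 0.76, 0.75 and 0.76, *Traf3* at 0.72, 0.71 and 0.72, and *Ikbke* at 0.95, 0.94 and 0.95.

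The receptors varied far more among control-labelled than among mutant-labelled nerves. The highest control-labelled value was 4.20 times the lowest for *Dhx58*, 3.52 times for *Ifih1* and 2.80 times for *Ddx58*, whereas the same ratio among mutant-labelled libraries was 1.52, 1.29 and 1.28. Among the same control-labelled libraries this ratio was 1.75 for *Ikbke*, 1.71 for *Zc3hav1*, 1.40 for *Tbk1*, 1.24 for *Traf3* and 1.16 for *Mavs*. The order of the control-labelled libraries was the same for all 3 receptors, with replicate 2 highest, replicate 1 next and replicate 3 lowest. Control-labelled replicate 2 was the highest control in 4 of the 4 genes past the threshold, against 30.5% of tested genes, and mutant-labelled replicate 2 was the lowest mutant in 4 of 4, against 36.7% of tested genes. Leaving out control-labelled replicate 2 or 3 set the range of the log2 fold changes, which ran from 5.23 to 6.14 for *Ifih1*, from 5.0 to 6.03 for *Dhx58* and from 4.00 to 4.74 for *Ddx58* over all alternatives.

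To ask whether the receptors rose to the same degree, their ratios were taken within each library. Counts of different genes are not levels per length, because the counted length of each gene was not used here, so only the difference of a ratio between genotypes can be read. The log2 ratio of *Ifih1* to *Ddx58* was −0.54, −0.12 and −0.44 in control-labelled replicates 1, 2 and 3, against 0.95, 0.92 and 0.85 in mutant-labelled replicates 1, 2 and 3. All mutant-labelled ratios lay above all control-labelled ratios, with a difference of means of 1.27. The exact two-sided permutation test gave p = 0.1, the smallest value that 3 libraries against 3 allow, and 0.167 after adjustment over the 5 pairs compared. The log2 ratio of *Ddx58* to *Dhx58* was 1.47, 0.72 and 1.30 against −0.06, 0.20 and 0.15, a difference of −1.07 without overlap (exact permutation p = 0.1, adjusted 0.167). *Ifih1* and *Dhx58* kept more nearly the same ratio, at 0.93, 0.60 and 0.85 against 0.89, 1.12 and 1.0, a difference of 0.21 with overlapping groups (exact permutation p = 0.2, adjusted 0.25).

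The kinase genes were compared in the same way. The log2 ratio of *Ikbke* to *Tbk1* was −3.49, −2.99 and −3.34 in control-labelled libraries and −2.91, −2.81 and −3.52 in mutant-labelled libraries. These groups overlapped, and the difference of 0.19 was within the spread of the libraries (SD 0.26 and 0.38, exact permutation p = 0.5, adjusted 0.5). The log2 ratio of receptor to adaptor, *Ifih1* to *Mavs*, was −1.35, −0.27 and −2.22 in control-labelled libraries and 4.66, 4.48 and 4.70 in mutant-labelled libraries. It differed by 5.89 without overlap (exact permutation p = 0.1, adjusted 0.167).

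**Figure D3:**
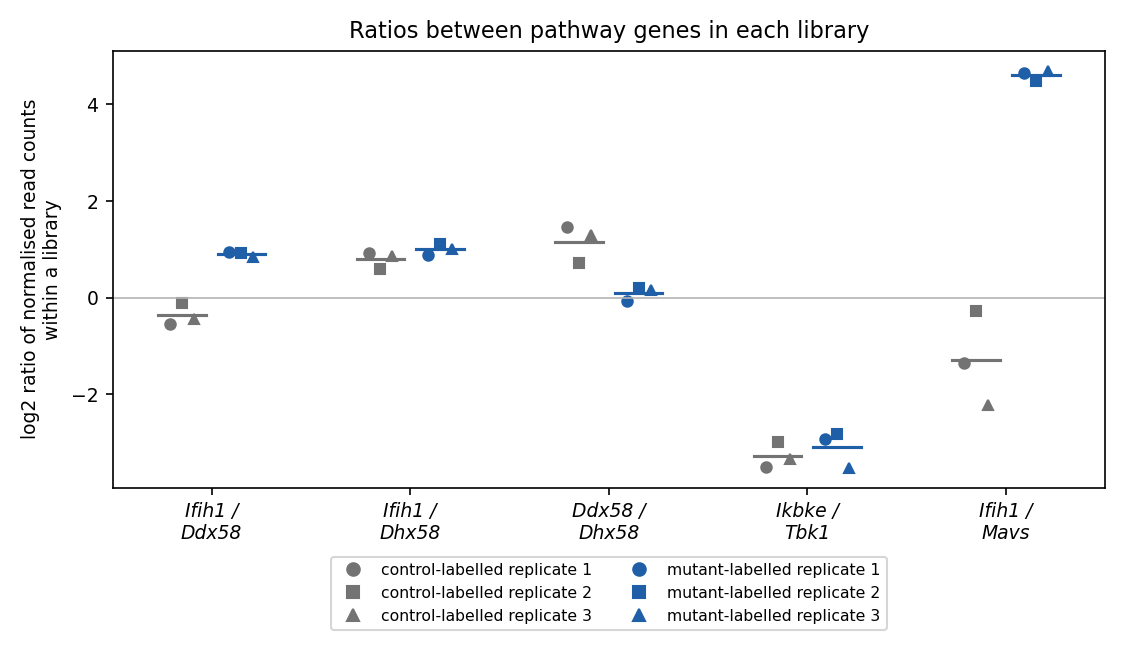
Log2 ratio of normalized read counts of 5 pairs of genes within each library, with control-labelled libraries in gray, mutant-labelled libraries in blue and a bar at the mean of 3. *Ifih1* over *Ddx58* and *Ifih1* over *Mavs* are higher and *Ddx58* over *Dhx58* is lower in all mutant-labelled libraries, while the other pairs overlap.

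For each gene past the threshold, the 3 named genes with the most similar profile over the 6 libraries were found by the root mean square difference of centered log2 values. For *Ifih1* these were *Phf11b* (0.15), *Dhx58* (0.16) and *Oas1b* (0.18). *Dhx58* was nearest to *Oas1b* (0.13), then *Ifih1* (0.16) and *Ifit1bl1* (0.17), so MDA5 and LGP2 stood in each other's list. The nearest to *Ddx58* were *Xdh* (0.16), *Ifi203* (0.16) and *Lgals3bp* (0.18), and the nearest to *Zc3hav1* were *9330188P03Rik* (0.15), *Apod* (0.16) and *Parp12* (0.16). Their Pearson correlations with the gene concerned were between 0.995 and 0.999 over 6 libraries that fall into 2 genotypes, a description that carries no test.

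Of 10 genes that help the receptors to signal, 3 were past the threshold, all higher, against 13.9% of tested genes past it and higher and 24.2% past it in either direction. By the adjusted p, 4 were higher and 2 lower, against 35.0% of tested genes called in either direction and 19.0% higher, and the median log2 fold change was 0.07. *Ddx60*, a helicase that has been described as a cofactor of RIG-I, had 52.2, 152 and 30.4 normalized reads in control-labelled replicates 1, 2 and 3, against 3848, 2978 and 3792 in mutant-labelled replicates 1, 2 and 3. Its log2 fold change of 5.79 (SE 0.49, adjusted p = 7.2e-05) was close to that of *Ifih1*. The genes of the ubiquitin ligases that act on RIG-I, *Trim25* and *Rnf135* (Riplet), rose by 2.94 and 2.67 on the log2 scale (adjusted p = 2.9e-05 and 1.5e-05). The helicase gene *Dhx15* was higher by 0.50, and *Ppp1ca*, the catalytic subunit of a phosphatase that activates both receptors, fell by 0.49 on the log2 scale (adjusted p = 0.0088), as did *Prkra* (PACT) by 0.39 (adjusted p = 0.0474).

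Of 12 genes that restrain the pathway, 2 were past the threshold and higher and 1 was past it and lower, which is about the share of all tested genes past it (24.2%). By the adjusted p, 4 were higher and 3 lower, against 35.0% of tested genes in either direction and 19.0% higher, and the median log2 fold change was 0.22. *Nlrc5*, described as an inhibitor of the pathway and also the transactivator of MHC class I genes, had 44.4, 562 and 30.4 normalized reads in control-labelled replicates, against 3527, 2104 and 3277 in mutant-labelled replicates. Control-labelled replicate 2 stood far above its 2 neighbors here too, and the log2 fold change of 4.96 had a wide error (SE 0.93, adjusted p = 0.0040). *Tnfaip3*, which encodes the ubiquitin-editing enzyme A20, rose by 2.01 on the log2 scale (SE 0.15, adjusted p = 4.2e-05). *Rnf5*, the gene of a ubiquitin ligase that targets MAVS for degradation, had 6294, 6666 and 6975 normalized reads in control-labelled replicates, against 2799, 3443 and 2749 in mutant-labelled replicates. It fell by 1.16 on the log2 scale (SE 0.11, adjusted p = 0.00014) without overlap, and with libraries rescaled to equal totals it was just inside the 2-fold limit, at −0.99. *Nlrx1* and *Tkfc*, whose products inhibit MAVS and MDA5, were lower by less than 2-fold (log2 fold changes −0.85 and −0.92, adjusted p = 0.0057 and 0.0021), while *Tnip1*, which encodes a binding partner of A20, and *Cyld*, the gene of a deubiquitinase, were higher by less than 2-fold (0.80 and 0.65, adjusted p = 0.0015 and 0.0169).

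Of 16 other genes of the complex that forms on MAVS, 6 were past the threshold and 10 had an adjusted p at or under 0.05, all higher, against 13.9% and 19.0% of tested genes, and the median log2 fold change was 0.47. *Irf7*, the interferon-inducible transcription factor that the kinases activate, had the largest change, from 492, 1947 and 204 normalized reads to 99343, 70931 and 75697 (log2 fold change 7.12, SE 0.67, adjusted p = 0.00012). *Irf3*, the factor present before induction, was at 3017 ± 253 and 3239.9 ± 150.4 normalized reads (SD, n = 3), a log2 fold change of 0.11 (adjusted p = 0.454). *Traf5* (2.05), *Traf2* (1.86), *Casp8* (1.84), *Tank* (1.49) and *Ripk1* (1.08) were also past the threshold by their log2 fold changes. *Ripk1* was under 2-fold with libraries rescaled to an equal 75th percentile (0.97) and without control-labelled replicate 3 (0.99). An unnamed gene with mean values of 3769 and 2395 overlaps *Traf5* on the same strand, while *Traf5* itself had means of 76.1 and 313.7, so its value is uncertain. Unnamed genes also overlap *Traf2* (means 84.9 and 150.2) and *Casp8* (28.8 and 84.3) on the same strand.

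Of 7 cofactors and relatives of ZAP, 4 were past the threshold and higher, against 13.9% of tested genes, and 1, *Zc3hav1l*, was lower by the adjusted p alone (log2 fold change −0.79, adjusted p = 0.0053), with a median log2 fold change of 1.58. *Parp12*, which like *Zc3hav1* encodes a CCCH zinc finger protein with a PARP domain, rose from 1131 ± 407 to 11198 ± 1727 normalized reads (SD, n = 3; log2 fold change 3.35, SE 0.23, adjusted p = 2.5e-05). *N4bp1*, an RNase gene, rose by 1.58 on the log2 scale (adjusted p = 5.0e-05), and the remaining members of this group past the threshold were *Trim25* and *Rnf135*, counted above as well.

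The receptors were set beside 12 other sensors of nucleic acid in the cytosol, of which 10 were past the threshold and higher, against 13.9% of tested genes, with a median log2 fold change of 5.86. *Oas3* (28.9, 129 and 0 normalized reads against 5309.97, 4168 and 5237) and *Zbp1* (71.1, 742 and 38.0 against 34309.7, 27931 and 34764) had the largest changes on the log2(value + 1) scale, and in both control-labelled replicate 2 was the highest control. With a control value of 0, the change of *Oas3* depends on the added 1, and by the ratio of means *Oasl1* (168) stood above *Zbp1* (114) and *Oas3* (93.5). *Aim2*, a sensor of double-stranded DNA, did not pass (log2 fold change 0.75, adjusted p = 0.172). Control-labelled replicate 2 was the highest control in 8 of the 10 sensors past the threshold, against 30.5% of tested genes.

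**Figure D4:**
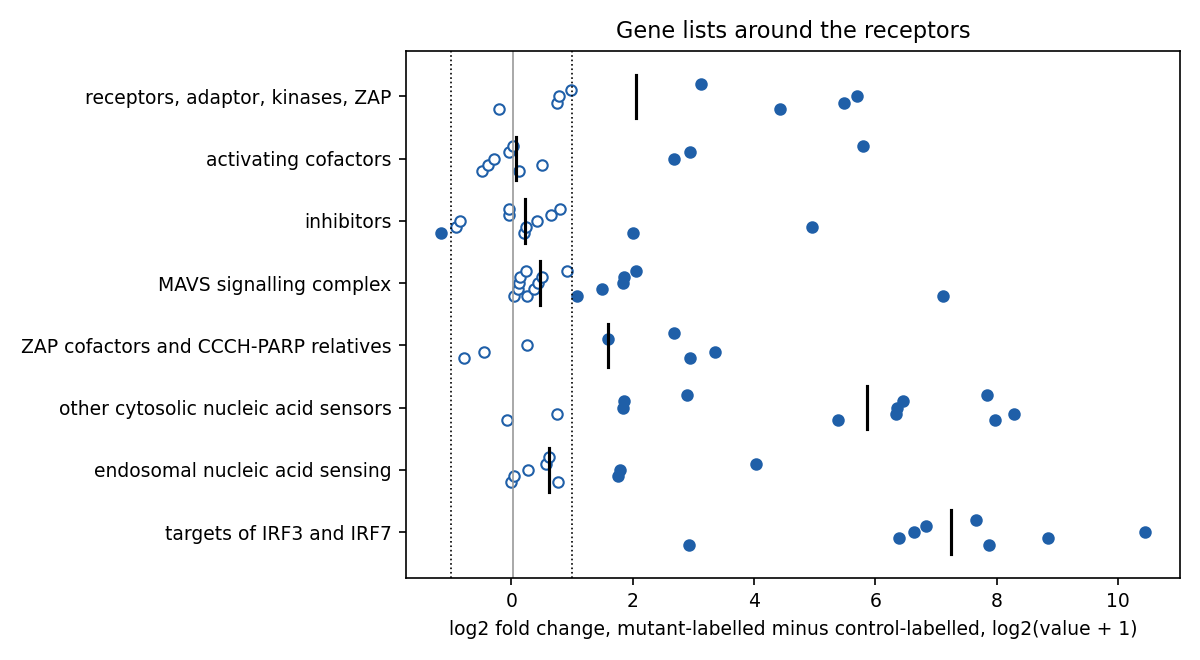
Log2 fold change, mutant-labelled minus control-labelled on the log2(value + 1) scale, of each tested gene in 8 lists, with filled points for genes past the threshold, black bars at the median of a list, dotted lines at 2-fold and a gray line at the median of all tested genes (0.03). The targets of IRF3 and IRF7 have a median of 7.25, or 6.88 with the 2 genes that had no control reads at their bound. These 2 genes passed the filter on low values through the mutant-labelled libraries alone, so that median is not ranked. Of the remaining lists, the other cytosolic sensors (5.86) have the highest median. Activating cofactors (0.07) and inhibitors (0.22) have medians near that of all genes.

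Markers of cell types in the nerve were read beside these genes, against 13.9% of tested genes past the threshold and higher and 10.4% past it and lower. Of 8 Schwann cell markers 7 were past it and lower, and their summed normalized reads were 1202810 to 1579970 in control-labelled and 44299 to 214151 in mutant-labelled libraries. Of 8 macrophage markers 1 (*Aif1*) was past it and higher and 3 (*Csf1r*, *Mrc1* and *Cx3cr1*) were lower, with overlapping sums of 17479 to 21831 and 15028 to 18205. The 8 markers of T and NK cells summed to 112 to 217 and 417 to 570.2, with *Cd3d*, *Cd8a* and *Ncr1* at 0 in all control-labelled libraries. Of the markers that passed the filter on low values in both genotypes, *Klrb1c* (log2 fold change 1.80, adjusted p = 0.0316) and *Cd4* (1.05, adjusted p = 0.0542) were past the threshold and higher, and *Cd3e* (0.40, adjusted p = 0.742) was not. No count of the T and NK markers past the threshold is read, because *Cd8a*, *Ncr1*, *Nkg7* and *Cd3g* passed the filter through the mutant-labelled libraries alone and *Cd3d* did not pass it. Of 4 B cell markers 0 were past the threshold in limma, 0 had an unadjusted p at or under 0.05, and 0 were past it in edgeR or DESeq2, and their sums were 113 to 143 against 68.2 to 95.3. Of 3 tested dendritic cell markers *Itgax* was past it and higher (log2 fold change 2.63, adjusted p = 0.0052). *Siglech* was past it and lower in limma (log2 fold change −2.76, unadjusted p = 0.0403, adjusted p = 0.0944). This gene passed the filter through the control-labelled libraries alone, and its values overlapped between genotypes. The sums of all 6 dendritic cell markers, 478 to 656 and 646 to 755, overlapped. Of 5 tested neutrophil markers *Csf3r* was past it and higher (3.28, adjusted p = 0.0025), with overlapping sums of 29.3 to 176 and 152 to 564 over all 6. Skeletal muscle markers were past it and higher in 5 of 6 genes (6109.7 to 32211 against 40329.7 to 306302 summed), and erythroid markers past it and lower in 5 of 6 (54935 to 76999 against 5133 to 15724). Fibroblast markers were past it and lower in 2 of 5 in limma (*Col1a1* and *Col1a2*) and in 1 in edgeR and in DESeq2. Their sums were 1925530 to 2169260 against 774845 to 1177220. *Lum* (log2 fold change −0.43), *Dcn* (0.005) and *Pdgfra* (0.16) were not called by the adjusted p. Of 4 perineurial markers *Itgb4* was past it and lower (−1.62), while *Cldn1* was higher by less than 2-fold (0.54, adjusted p = 0.0072). *Slc2a1* (−0.27) and *Tjp1* (0.005) were not called by the adjusted p, and the perineurial sums were 22576 to 25124 against 19417 to 21001. Of 5 endothelial markers 0 were past it in limma, edgeR and DESeq2, and the sums of 12696 to 18824 and 17789 to 23583 overlapped. By limma's adjusted p 2 of the 5 were higher, against 19.0% of tested genes. These were *Kdr* (log2 fold change 0.81, adjusted p = 0.0331) and *Emcn* (0.57, adjusted p = 0.0339), both under 2-fold. The part of these values in those of the receptors, adaptor and kinases was not tested.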

How the data were processed

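RNA of P4 sciatic nerve was sequenced in 3 control-labelled and 3 mutant-labelled libraries, grouped by genotype label. The authors mapped oriented poly-A+ reads with STAR 2.4.0 on mm10, counted those on constitutive regions of FAST DB genes, and deposited a signal per gene, that is, counts divided by DESeq2 size factors. Division by the value of 1 read gave whole reads for 100% of values (tolerance 0.01), and edgeR and DESeq2 were run on these as alternatives. Log2(value + 1) of the 25802 genes with a mean of at least 10 in at least 1 genotype was compared by limma with a trend, without covariates, since no batch is labelled, and p-values were adjusted by the Benjamini-Hochberg method across the whole tested table. Members and lists were chosen with earlier results of these data known. Named are all members, the 2 largest rises and falls past the threshold per list, and the 3 nearest profiles per member past it. *Rnf135*, *Dhx15*, *Ppp1ca*, *Prkra*, *Nlrx1*, *Tkfc*, *Tnip1*, *Cyld*, *Irf3*, *Traf2*, *Casp8*, *Tank*, *Ripk1*, *N4bp1*, *Zc3hav1l*, *Oasl1*, *Aim2*, *Tlr9*, *Azi2*, *Ifit2* and *Ifna4* were added after their values were seen. Gene names of the table were used, and 35979 genes have none. Marker genes were also named after their values were seen. The limma step was tested on simulated data. R 4.3.3, limma 3.58.1, edgeR 4.0.16, DESeq2 1.42.0, Python 3.11.15, scipy 1.17.1 and matplotlib 3.10.9 were used.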

Additional observations from a re-analysis of the deposited data

How the results depend on the processing

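Results were recomputed under 12 alternative settings, and once more leaving out any 1 of the 6 libraries. No log2 change of the 8 genes turned its direction, nor did the differences between pairs, which were recomputed with a pseudocount of 10 and without each library alone. Of the 8 genes 7 kept their side of the 2-fold threshold, and *Ikbke* was past it after rescaling to the same total (1.15) and without control replicate 2 (1.20) or mutant replicate 3 (1.17), so that 4 to 5 genes were past it. With an adjusted p at or under 0.05, 6 to 7 genes were called, and 6 without trend and with any library left out. *Mavs* ranged from −0.31 to −0.03 and *Tbk1* from 0.63 to 0.95. Inhibitors past the threshold ranged from 2 to 4, genes of the MAVS complex from 5 to 7 and other cytosolic sensors from 10 to 11, as *Rnf5*, *Tkfc*, *Ripk1*, *Azi2* and *Aim2* crossed the threshold under some settings, while the counts of the remaining pathway lists did not change. Marker lists were recomputed with edgeR and DESeq2 alone, and those past the threshold went from 2 to 1 for fibroblast and dendritic markers with both and from 1 to 2 for neutrophil markers with DESeq2. Over all genes, 4706 (minimum mean of 50) to 6892 (no filter) were past the threshold, against 6251. The balance of higher and lower genes moved with the scaling. Of the genes past the threshold 57.3% were higher as deposited, 66.4% with equal totals and 50.3% with an equal 75th percentile. Replicate numbers stand for different animals, and the deviations of same-numbered libraries correlated at −0.062, −0.055 and 0.009, so they did not pair the samples. With the replicate block 4 of the 8 genes were past the threshold and 7 had an adjusted p at or under 0.05, with 6149 past it over all genes. Pairs of genes could not reach p under 0.05 with 3 libraries against 3. Intervals and floors cover the spread of these libraries and counting only, because no molecular identifiers are named that would mark PCR copies.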

Other observations

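Sensing of nucleic acid in endosomes runs through Toll-like receptors and the adaptors TRIF and MyD88 instead of MAVS. Of 9 genes of this route 3 were past the threshold and 6 had an adjusted p at or under 0.05, all higher, against 13.9% and 19.0% of tested genes, with a median log2 fold change of 0.61. *Tlr3*, the endosomal receptor for double-stranded RNA, had 382, 451 and 349.8 normalized reads in control-labelled replicates 1, 2 and 3, against 7437, 5128 and 7069 in mutant-labelled replicates 1, 2 and 3. Its control-labelled values were close together, unlike those of the cytosolic receptors, and its log2 fold change was 4.04 (SE 0.17, adjusted p = 3.0e-06). *Myd88* (1.79) and *Tlr9* (1.76) were also past the threshold by their log2 fold changes.

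Of 8 targets of IRF3 and IRF7, *Ifnb1* and *Ifna4* had no reads in control-labelled libraries and passed the filter on low values through the mutant-labelled libraries alone. The other 6 were past the threshold and higher, against 13.9% of tested genes, with log2 fold changes from 2.92 (*Ifit2*) to 10.44 (*Ccl5*). *Ccl5* had 11.1, 34.0 and 10.1 normalized reads in control-labelled replicates, against 25406, 19508 and 25500.3 in mutant-labelled replicates. *Ifnb1* and *Ifna4* were at least 139-fold and 34.9-fold higher in mutant-labelled ones, against a floor of 3 reads in each library.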
